A study of Mus musculus with 6 samples.

Results

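The fetal and stress gene programme of the heart was followed through 9 genes: the natriuretic peptide genes Nppa and Nppb, the myosin heavy chain genes Myh6, Myh7 and Myh7b, the skeletal actin gene Acta1, the stretch-responsive gene Ankrd1 and the atrial myosin light chain genes Myl4 and Myl7. They were taken by gene symbol from a table of 24972 gene rows. All 9 had a row, and all 9 were among the 12477 genes with a mean of at least 10 normalized counts that entered the test. Heart cells of the mature ventricle normally express adult isoforms of contractile proteins. Under load or injury they can return to isoforms of the fetal ventricle and release natriuretic peptides, which is why these genes are read as markers of cardiac stress.

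RNA came from ventricular cardiomyocytes of MX1gfp mice (Jackson Laboratory strain 033219), and both groups carried this reporter. The 3 vehicle mice were injected into the peritoneum with phosphate-buffered saline. The 3 treated mice were given 1 dose of doxorubicin by the same route, 25 mg per kg of body weight, in the same volume of 100 microlitres. Doxorubicin is an anthracycline cancer drug with known toxicity to the heart. Cells were prepared 48 hours later by collagenase digestion with the atria separated off, and myocytes were enriched by settling; no sorting is described. The labels give neither the age nor the sex of the animals.

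The deposited values, normalized counts per gene, summed to between 7217949 and 7500386 per vehicle library and between 5410780 and 6498373 per doxorubicin library. The spacing of the lowest values put the reads behind them at roughly 7710000 to 11400000 and 3670000 to 6170000. By this estimate every doxorubicin library was the shallower, and depth and treatment cannot be told apart. The smallest member value, Myl7 in vehicle replicate 3, rested on about 33 reads by the same estimate. The 12 cardiomyocyte reference genes (Actc1, Tnnt2, Tnni3 and others) were abundant in all 6 libraries, with no value under 2441 normalized counts. Their mean log2 level, relative to the vehicle mean, was -0.36, -1.61 and -1.93 in doxorubicin replicates 1 to 3, beside an SD of 0.05 among vehicle libraries. Fewer cardiomyocytes in the preparation and less of these RNAs per cell cannot be told apart. Doxorubicin replicate 1 thus stood nearer to the vehicle libraries than replicates 2 and 3, and member results are given with and without it. It was singled out by its values in these same data. Fits without it therefore describe replicates 2 and 3, and their p-values are not evidence for an effect of doxorubicin. Xist and Y-linked transcripts also divided the libraries: Xist was present in vehicle replicate 3 and in doxorubicin replicates 1 and 3, and the Y-linked gene Ddx3y in the other 3.

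With all 6 libraries, limma called 0 of the 12477 genes (0%) at the threshold of 0.05 after Benjamini-Hochberg adjustment, and so 0 of 9 members. Before adjustment, 4485 genes had a p under 0.05, among them the members Nppb and Acta1. Of the members, 4 were higher on average after doxorubicin and 5 were lower, with a median log2 fold change of -0.15 beside -0.00462 over all genes tested. The 3 doxorubicin values lay wholly apart from the 3 vehicle values for 1 of 9 members, Nppb, against 41.8% of all genes tested. Without doxorubicin replicate 1, limma called 4 of 9 members, with Myh7 higher and Nppb, Myh6 and Acta1 lower. That share is close to the background of 41.1% of all genes called in the same fit.

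**Figure D1:**
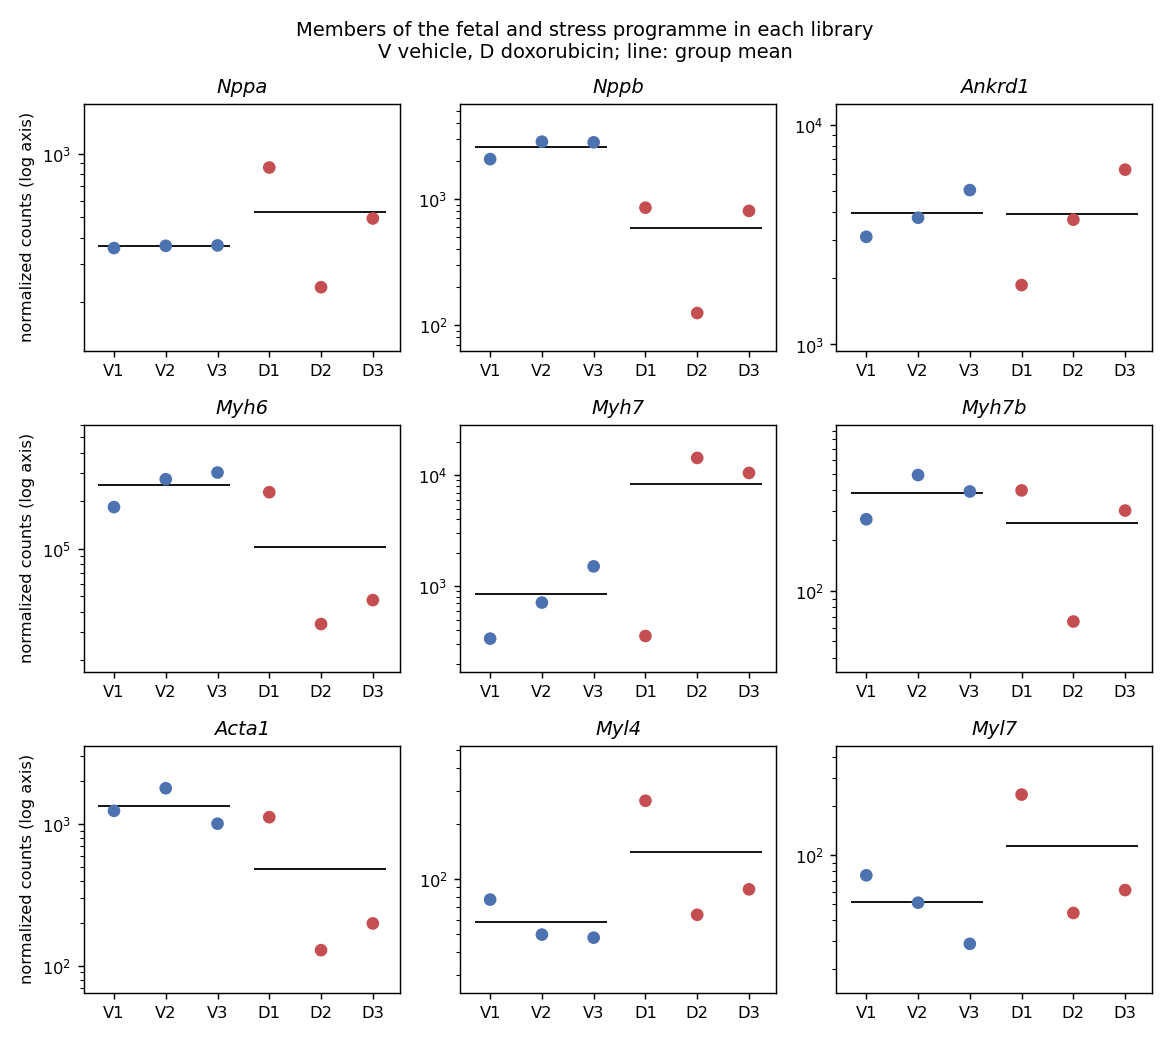
Normalized counts of each member (log axis) in vehicle (V1 to V3, blue) and doxorubicin (D1 to D3, red) libraries, with a line at each group mean. Nppb is the member whose groups do not overlap, and Myh7 is high in D2 and D3 at 14376 and 10524 while D1 lies among the vehicle libraries.

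Nppa encodes atrial natriuretic peptide and Nppb encodes brain natriuretic peptide. Both hormones lower blood volume and pressure through the guanylyl cyclase receptor encoded by Npr1. The genes are neighbours on chromosome 4 (GRCm38), with Nppb at 147985786 to 147987205 and Nppa at 148000722 to 148002074. Their upstream sequences are shown because the neighbours differed in behaviour. Sequences are from RefSeq on GRCm38.p6, and capitals mark GATA words (AGATAA or AGATAG, and likewise TGATAA or TGATAG) and the word TNAAGTG that NKX2-5 can recognise, on either strand. The Nppa run is the 250 bases before its start, chr4:148000472-148000721 on the plus strand. The Nppb run is chr4:147985803-147985823 on the plus strand, 97 to 77 bases before its RefSeq start, and holds both GATA words of its window. The gene span given above begins further upstream, so this run lies within it.
Nppa: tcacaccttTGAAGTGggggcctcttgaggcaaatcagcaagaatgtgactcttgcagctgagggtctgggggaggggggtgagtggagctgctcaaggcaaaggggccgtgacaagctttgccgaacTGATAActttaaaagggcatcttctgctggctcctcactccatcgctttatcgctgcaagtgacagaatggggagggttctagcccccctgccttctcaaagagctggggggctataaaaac
Nppb: gcTGATAAatcagAGATAAcc
GATA words occurred in 26.5% and TNAAGTG in 10.1% of the 32851 windows of 250 bases in the same table, so a match in these windows is common.

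Nppb was the member with the lowest adjusted p. It measured 2062, 2832 and 2800 normalized counts in vehicle replicates 1 to 3, against 850.4, 125 and 803 in doxorubicin replicates 1 to 3. Every doxorubicin library, including replicate 1, lay below every vehicle library, and replicate 2 was the lowest by far, at 20.6-fold under the vehicle mean. The groups averaged 2565 ± 436 and 593 ± 406 (SD, n = 3 in each group). On the log2 scale the difference was -2.52 (SE 0.68, limma adjusted p 0.0859). The 95% interval of -4.11 to -0.94 did not reach 0, but 22.6% of all genes tested had doxorubicin groups wholly below the vehicle groups. The difference was -1.62 without doxorubicin replicate 2, and -3.00 without doxorubicin replicate 1 (adjusted p 0.00767).

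Nppa did not follow its neighbour. The vehicle libraries held 359, 367 and 369 normalized counts, an SD of 5.65, and doxorubicin replicates 1 to 3 held 860.0, 234 and 495. The vehicle libraries were almost equal, and the doxorubicin libraries lay on both sides of them, 2 above and 1 below. The log2 difference of 0.34 (SE 0.41, limma adjusted p 0.567, 95% interval -0.62 to 1.31) was within the spread between libraries, and without doxorubicin replicate 1 it was -0.10.

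The balance of the Nppa and Nppb transcripts differed in every doxorubicin library. Nppb made up 85.2%, 88.5% and 88.4% of the summed Nppa and Nppb counts in the vehicle libraries, against 49.7%, 34.7% and 61.9% in doxorubicin replicates 1 to 3. All 3 doxorubicin libraries had a higher Nppa to Nppb ratio than all 3 vehicle libraries, and scaling between libraries cancels in this ratio. The log2 ratio averaged -2.80 ± 0.24 in vehicle and 0.08 ± 0.81 in doxorubicin (SD, n = 3 in each group), a difference of 2.87. The exact two-sided permutation p was 0.1, the smallest that 3 libraries against 3 allow, and 0.267 after Benjamini-Hochberg adjustment over the 8 ratios compared. Leaving out any single library kept the difference between 2.46 and 3.26.

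**Figure D2:**
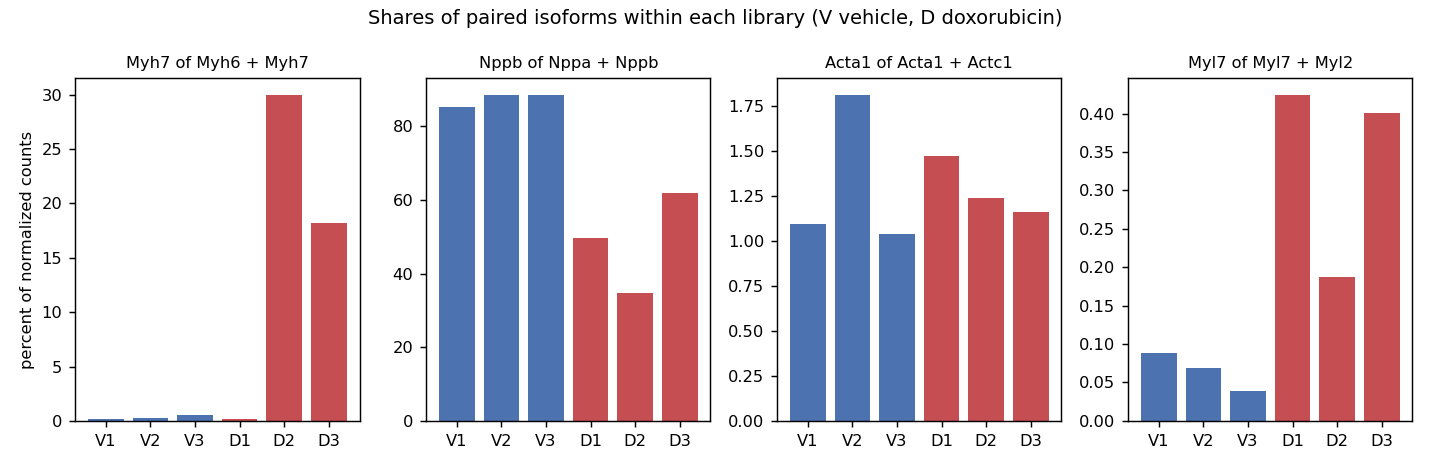
Share of 1 transcript in the summed normalized counts of a pair (percent, bars from 0) in each vehicle (V) and doxorubicin (D) library. Myh7 reaches 30.0% and 18.2% of its pair in D2 and D3, the Nppb share is below the vehicle libraries in D1 to D3, the Acta1 share lies between 1.04% and 1.81% throughout, and the Myl7 share is above the vehicle libraries in D1 to D3.

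Myh6 and Myh7 encode the alpha and beta myosin heavy chains, the motor proteins of the cardiac thick filament. The fast alpha chain dominates the adult mouse ventricle, and the slower beta chain dominates the fetal one. The genes lie in tandem on chromosome 14 (GRCm38), with Myh6 at 54941921 to 54968017 and Myh7 at 54970684 to 54994626, both on the minus strand. Their coding sequences of 5814 and 5805 bases were identical at 91.7% of aligned bases, and 32.2% of the 31-base words of the Myh7 transcript also occurred in that of Myh6. Reads from shared stretches can be assigned to either, which makes the smaller of the pair uncertain. The window of 120 bases within 1 exon that differed most was the start of the coding sequence, where 32 bases differ, and it is printed to show what tells the transcripts apart. It lies at chr14:54965341-54965460 in exon 3 of 39 of Myh6 and at chr14:54992754-54992873 in exon 4 of 41 of Myh7 (GENCODE M21, minus strand), and capitals mark the bases that differ.
Myh6: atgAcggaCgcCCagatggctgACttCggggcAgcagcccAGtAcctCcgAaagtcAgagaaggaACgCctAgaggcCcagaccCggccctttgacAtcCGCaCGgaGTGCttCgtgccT
Myh7: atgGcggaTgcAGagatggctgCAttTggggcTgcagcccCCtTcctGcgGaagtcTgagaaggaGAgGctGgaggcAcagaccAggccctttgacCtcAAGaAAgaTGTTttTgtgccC

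Myh7 had the largest positive difference of any member and also the largest disagreement between doxorubicin libraries. It measured 336, 711 and 1509 normalized counts in vehicle replicates 1 to 3, against 355, 14376 and 10524 in doxorubicin replicates 1 to 3. Replicates 2 and 3 were 16.9-fold and 12.4-fold above the vehicle mean, whereas replicate 1 lay at the low end of the vehicle range. The log2 fold change over all libraries was 2.41 (SE 1.33, limma adjusted p 0.223, 95% interval -0.69 to 5.50), within the spread between libraries. Without doxorubicin replicate 1 it was 4.11 (SE 0.53, adjusted p 0.000927). Leaving out doxorubicin replicate 2 or 3 instead gave 1.44 and 1.67.

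Myh6 was the most abundant member and went the other way in the same libraries. It measured 181986, 272263 and 300008 normalized counts in vehicle replicates 1 to 3, against 225671, 33549 and 47431 in doxorubicin replicates 1 to 3. Doxorubicin replicate 1 lay inside the vehicle range, and replicates 2 and 3 were 7.49-fold and 5.30-fold below the vehicle mean. The log2 fold change was -1.79 (SE 0.93, limma adjusted p 0.199), and -2.62 without doxorubicin replicate 1 (adjusted p 0.0115). Summed over Myh6 and Myh7, myosin heavy chain counts were 182322 to 301516 in vehicle and 226026, 47925 and 57955 in doxorubicin replicates 1 to 3. The sum as deposited thus lay below the vehicle range in replicates 2 and 3. The cardiomyocyte reference genes were also lower there, at -1.61 and -1.93 in mean log2 level. Whether Myh7 made up for the lower Myh6 per cell was not tested.

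Within each library, Myh7 was 0.184%, 0.261% and 0.50% of the summed Myh6 and Myh7 counts in vehicle replicates 1 to 3. It was 0.157% in doxorubicin replicate 1, the lowest of all libraries, and 30.0% and 18.2% in replicates 2 and 3. The log2 ratio of Myh7 to Myh6 averaged -8.43 ± 0.73 in vehicle and -4.24 ± 4.42 in doxorubicin (SD, n = 3 in each group), a difference of 4.20 with an exact two-sided permutation p of 0.4 (0.457 adjusted over the 8 ratios). Without doxorubicin replicate 1 the difference was 6.73, and the exact permutation p was 0.1, again the smallest possible. Among the 3 libraries that had Ddx3y the ratio was 7.61 higher in the doxorubicin library than in the mean of the 2 vehicle libraries. Among the 3 that had Xist it was 1.89 higher in the mean of the 2 doxorubicin libraries than in the single vehicle library. These are values without a test.

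The windows before a RefSeq start of each gene hold the word CATTCC (printed here on its other strand as GGAATG), known as MCAT and bound by TEAD factors. That word occurred in 12.6% of the 32851 windows. Runs are 5′ to 3′ on the minus strand from RefSeq, GRCm38.p6, and end before any annotated exon: chr14:54966642-54966857 for Myh6 and chr14:54994627-54994876 for Myh7. The RefSeq start used for Myh6 is 54966607, inside the gene span given above, so the Myh6 run lies within that span. Capitals mark MCAT, GATA and TNAAGTG words on either strand.
Myh6: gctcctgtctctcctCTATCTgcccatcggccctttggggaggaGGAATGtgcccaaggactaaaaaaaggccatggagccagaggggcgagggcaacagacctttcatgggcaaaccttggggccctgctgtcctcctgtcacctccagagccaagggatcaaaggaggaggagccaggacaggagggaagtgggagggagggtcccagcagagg
Myh7: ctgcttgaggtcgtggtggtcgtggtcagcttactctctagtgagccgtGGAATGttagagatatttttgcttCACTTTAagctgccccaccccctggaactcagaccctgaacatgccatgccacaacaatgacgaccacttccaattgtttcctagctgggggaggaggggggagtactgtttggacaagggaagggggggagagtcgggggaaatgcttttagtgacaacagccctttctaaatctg
Both runs share the MCAT word, at 206 bases before that RefSeq start of Myh6 and 201 before that of Myh7, while the GATA word occurs in that of Myh6 and the TNAAGTG word in that of Myh7.

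Mhrt, a long noncoding RNA, overlaps Myh7 on chromosome 14 (54968787 to 54974349) and is known as its antisense partner. It held 218, 283 and 198 normalized counts in vehicle replicates 1 to 3, against 222, 15.7 and 94.0 in doxorubicin replicates 1 to 3. Its values were therefore low in the 2 libraries where Myh7 was high. Whether the counting used strand is not given in the sources used here, so reads from the overlap of Mhrt and Myh7 cannot be assigned with certainty.

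Myh7b encodes a further, ancient myosin heavy chain and lies on chromosome 2 (155611243 to 155634307, GRCm38). It measured 267, 490.5 and 391 normalized counts in vehicle replicates 1 to 3, against 397, 65.7 and 301 in doxorubicin replicates 1 to 3. Only doxorubicin replicate 2 lay below the vehicle range, at 5.83-fold under the vehicle mean. The log2 difference of -0.90 (SE 0.62, limma adjusted p 0.323) was within the spread between libraries, and it was -0.10 without doxorubicin replicate 2. Myh7b and Myh7 therefore did not move together: in doxorubicin replicates 2 and 3 the log2 ratio of Myh7b to Myh7 was -7.77 and -5.13, against -1.95 to -0.33 in the vehicle libraries and 0.16 in doxorubicin replicate 1.

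The 3 heavy chain genes are hosts of microRNAs that take part in the control of myosin genes. Each hairpin lies in an intron of its host in GENCODE M21: Mir208a in Myh6 (chr14:54949060-54949142), Mir208b in Myh7 (chr14:54975700-54975776) and Mir499 in Myh7b (chr2:155622880-155622958). The mature sequences are from RefSeq, with the seed, bases 2 to 8, in capitals.
miR-208a-3p: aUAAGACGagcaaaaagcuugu
miR-208b-3p: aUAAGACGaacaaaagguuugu
miR-499-5p: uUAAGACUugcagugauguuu
The first and second share the seed UAAGACG, and the third has UAAGACU. The rows Mir208a, Mir208b and Mir499 were listed at 0 in all 6 libraries, so the host genes were measured here and the microRNAs were not.

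Acta1 encodes skeletal muscle alpha-actin, which the fetal heart uses beside the cardiac form encoded by Actc1. Its upstream run, chr8:123894776-123895025 (GRCm38.p6, minus strand, RefSeq), is shown because it holds a CArG box, the element bound by serum response factor, near an MCAT word, both in capitals. A CArG box occurred in 1.47% of the 32851 windows, and of the 9 members the windows of Acta1 and Myl7 held one.
Acta1: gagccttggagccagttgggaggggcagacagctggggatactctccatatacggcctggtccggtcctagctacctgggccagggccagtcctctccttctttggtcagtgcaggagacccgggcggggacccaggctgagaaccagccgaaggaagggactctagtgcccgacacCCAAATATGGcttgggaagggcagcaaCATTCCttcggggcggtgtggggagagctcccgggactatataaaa

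Acta1 measured 1240, 1789 and 1007 normalized counts in vehicle replicates 1 to 3, against 1119, 129 and 199 in doxorubicin replicates 1 to 3. Doxorubicin replicate 1 lay inside the vehicle range, while replicates 2 and 3 were 10.4-fold and 6.74-fold below the vehicle mean. The log2 fold change was -2.09 (SE 0.72, limma adjusted p 0.0955, 95% interval -3.77 to -0.40), and -3.02 without doxorubicin replicate 1 (adjusted p 0.000286). Without doxorubicin replicate 2 it was -1.46.

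The cardiac isoform was lower in the same libraries by a similar factor. Acta1 was 1.10%, 1.81% and 1.04% of the summed Acta1 and Actc1 counts in vehicle replicates 1 to 3, against 1.47%, 1.24% and 1.16% in doxorubicin replicates 1 to 3. The groups overlapped, and the log2 ratio differed by 0.01 (exact two-sided permutation p 1.0), with an SD of 0.45 among vehicle and 0.18 among doxorubicin libraries. In replicates 2 and 3 the actin share thus stayed inside the vehicle range while the Myh7 share lay far above it. Fast skeletal muscle markers were near 0, with Myh1 at 0 in all 6 libraries and the 9 markers summing to 17.8 to 28.9 normalized counts in vehicle and 28.7 to 49.1 in doxorubicin.

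Myl4 and Myl7 encode the essential and the regulatory myosin light chain of the atrium. Both are made by the fetal ventricle and are largely replaced by Myl3 and Myl2 in the adult one. Both genes lie on chromosome 11 (GRCm38), Myl4 at 104546017 to 104587215 and Myl7 at 5896637 to 5898782. Myl4 measured 77.0, 49.6 and 47.8 normalized counts in vehicle replicates 1 to 3, against 266, 63.7 and 87.6 in doxorubicin replicates 1 to 3. Myl7 measured 75.5, 51.3 and 28.7 in the vehicle libraries, against 236, 44.3 and 61.3 in the doxorubicin libraries. Both were highest in doxorubicin replicate 1, at 4.58-fold and 4.56-fold above the vehicle mean, and the remaining libraries overlapped. Their log2 fold changes were 1.00 (SE 0.50, limma adjusted p 0.189) and 0.83 (SE 0.63, adjusted p 0.360), and 0.39 and 0.11 without doxorubicin replicate 1.

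Set against the adult light chains of the same library, the atrial chains were higher in all 3 doxorubicin libraries. Myl7 was 0.0387% to 0.0890% of the summed Myl7 and Myl2 counts in vehicle, and 0.425%, 0.187% and 0.401% in doxorubicin replicates 1 to 3. Myl4 was 0.125% to 0.181% of the summed Myl4 and Myl3 counts in vehicle, and 0.966%, 0.409% and 0.842% in doxorubicin replicates 1 to 3. The log2 ratio differed by 2.36 for Myl7 to Myl2 and by 2.24 for Myl4 to Myl3, each with an exact two-sided permutation p of 0.1 (the smallest possible, 0.267 adjusted over the 8 ratios). In replicate 1 the numerator was high, and in replicates 2 and 3 the adult chains were low: Myl2 held 55387, 23628 and 15214 normalized counts in doxorubicin replicates 1 to 3, against 73984 to 84761 in vehicle. Myl2 and Myl3 are both cardiomyocyte reference genes. Centred on the mean of those genes, 68% of all genes tested lay above the vehicle range in every doxorubicin library.

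Other atrial markers were partly high in the same libraries. Of the 10 listed, 8 had a mean of at least 10, and 2 of those, Dkk3 and Kcna5, were higher in every doxorubicin library than in every vehicle library. The same held for 2401 of all 12477 genes tested, a similar share. Doxorubicin replicate 1 had the highest Sln (63.7 against 10.5 to 29.5 in vehicle) and Mybphl (26.4 against 5.75 to 10.1), as it had the highest Nppa, Myl4 and Myl7. Bmp10 was at 0 in the vehicle libraries and in doxorubicin replicate 2. The 10 markers summed to 4906 to 6628 normalized counts in vehicle and 3454 to 5182 in doxorubicin, with Clu the largest part in every library. The part of atrial cells in the levels of Nppa, Myl4 and Myl7 was not tested.

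**Figure D3:**
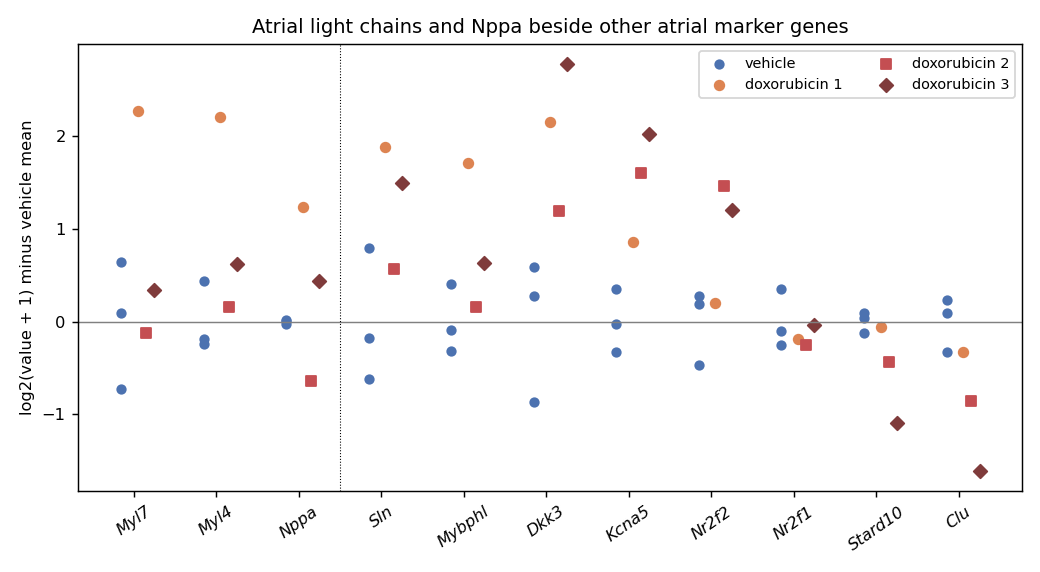
Difference of log2(value + 1) from the vehicle mean for Myl7, Myl4 and Nppa (left of the dotted line) and 8 other atrial markers, in 3 vehicle libraries (blue circles) and doxorubicin replicates 1 to 3 (orange circles, red squares, brown diamonds). Doxorubicin replicate 1 is the highest library for Myl7, Myl4, Nppa, Sln and Mybphl, whereas Nr2f1, Stard10 and Clu lie in the vehicle range in it.

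Ankrd1 encodes a muscle ankyrin repeat protein that binds titin at the I-band and also enters the nucleus as a cofactor of transcription. It lies on chromosome 19 (36111965 to 36119844, GRCm38). It measured 3098, 3785 and 5060.4 normalized counts in vehicle replicates 1 to 3, against 1866, 3709 and 6273 in doxorubicin replicates 1 to 3. The doxorubicin libraries lay below, within and above the vehicle range, and the group means of 3981 ± 996 and 3949 ± 2213 (SD, n = 3 in each group) differed by less than this spread. The log2 fold change was -0.15 (SE 0.43, limma adjusted p 0.822), with a 95% interval of -1.16 to 0.85, and it was 0.31 without doxorubicin replicate 1. It was also positive without vehicle replicate 3, at 0.04.

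The members were next set beside the 12 cardiomyocyte reference genes of the same library. Centring every library on these genes raised the median log2 fold change of all genes tested to 1.30, so values on this scale are read against that shift. On it 3 members, Nppa, Myl4 and Myl7, lay above the vehicle range in every doxorubicin library, as did 68% of all genes tested. Limma then called 4 of 9 members, those 3 and Myh7, against 47.8% of all genes. Nppa differed by 1.65 (adjusted p 0.0193), Myl4 by 2.30 (0.00975), Myl7 by 2.13 (0.0130) and Myh7 by 3.71 (0.0130). For the remaining members, as for Myh7, the groups overlapped: Myh6 at -0.49, Acta1 at -0.78, Nppb at -1.22, Myh7b at 0.41 and Ankrd1 at 1.15. Each of these values lay below the all-gene median of 1.30, and those of the 4 called members lay above it. Relative to the vehicle mean, Nppb beside the reference genes was at -1.21, -2.73 and 0.27 in doxorubicin replicates 1 to 3. Ankrd1 was at -0.70, 1.54 and 2.62.

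Markers of several other cell types also differed between libraries. The 10 macrophage markers were all wholly higher, in every doxorubicin library above every vehicle library, as were 2401 of all 12477 genes tested. They summed to 2423 to 2554 normalized counts in vehicle and to 3938, 6906 and 15005 in doxorubicin replicates 1 to 3. Neutrophil markers (6 genes) summed to 10.5 to 21.7 and to 55.0, 563 and 419. Fibroblast markers (8 genes, 3 of them wholly higher) summed to 6236 to 8274 and to 8639, 22816 and 16406. The 8 endothelial markers, 5 of them wholly higher, summed to 16037 to 22444 and 29149 to 38602. Smooth muscle and pericyte markers (8 genes) summed to 9615 to 14340 in vehicle and 11070 to 13127 in doxorubicin. Erythroid markers (5 genes) summed to 1211 to 2104 in vehicle and to 9027, 250 and 421 in doxorubicin replicates 1 to 3. Replicate 1 was thus above the vehicle range for these, and replicates 2 and 3 were below it. The part of these cell types in the member results was not tested.

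**Figure D4:**
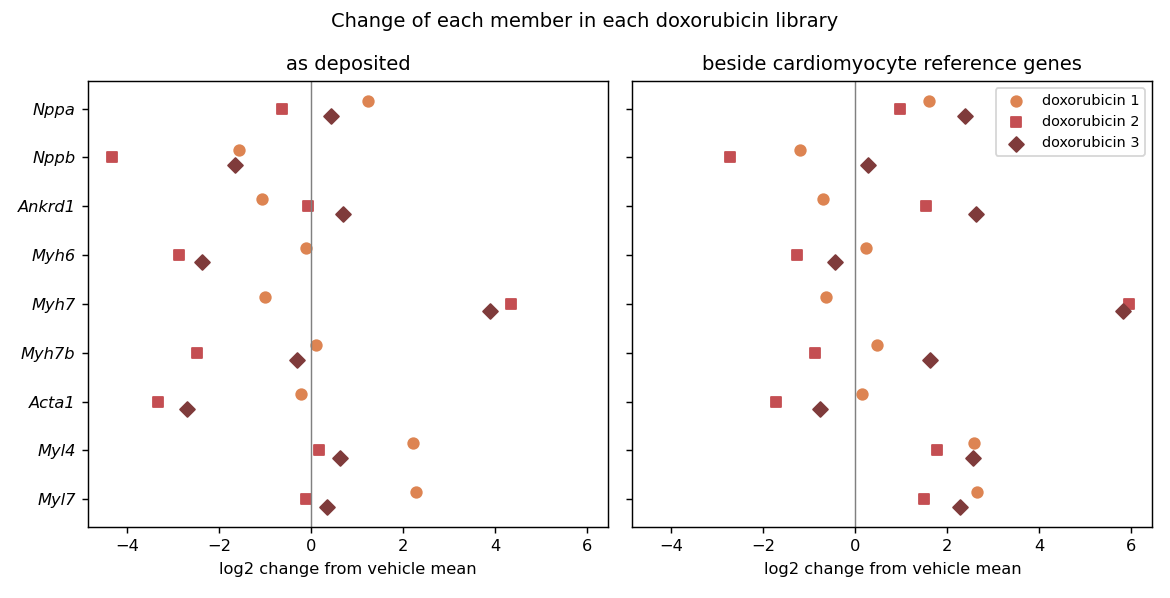
Log2 change of each member from the vehicle mean in doxorubicin replicates 1 (orange circles), 2 (red squares) and 3 (brown diamonds), as deposited (left) and after subtracting the mean of the cardiomyocyte reference genes of the same library (right). Myh7 lies near 4 in replicates 2 and 3 and below 0 in replicate 1 on the left, and Nppa, Myl4 and Myl7 lie right of 0 in all 3 libraries on the right.

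Levels were compared between members per kilobase of the longest coding transcript in GENCODE M21. In vehicle libraries Myh6 stood first at 41129 ± 10095 normalized counts per kilobase (SD, n = 3). Nppb followed at 3284 ± 558, Ankrd1 at 1971 ± 493, Acta1 at 930.3 ± 278 and Nppa at 422 ± 6.53, each apart from its neighbour in the order. Myh7, Myl7, Myh7b and Myl4 came last, at 137 ± 96.1, 87.8 ± 39.7, 62.2 ± 18.1 and 61.7 ± 17.4 per kilobase, and neighbours among these 4 overlapped. After doxorubicin Myh6 still stood first (16721 ± 17527) and Ankrd1 second (1955 ± 1096). Myh7 came next at 1351 ± 1163 per kilobase, but every pair of neighbours from Ankrd1 down to Myl4 overlapped.

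**Figure D5:**
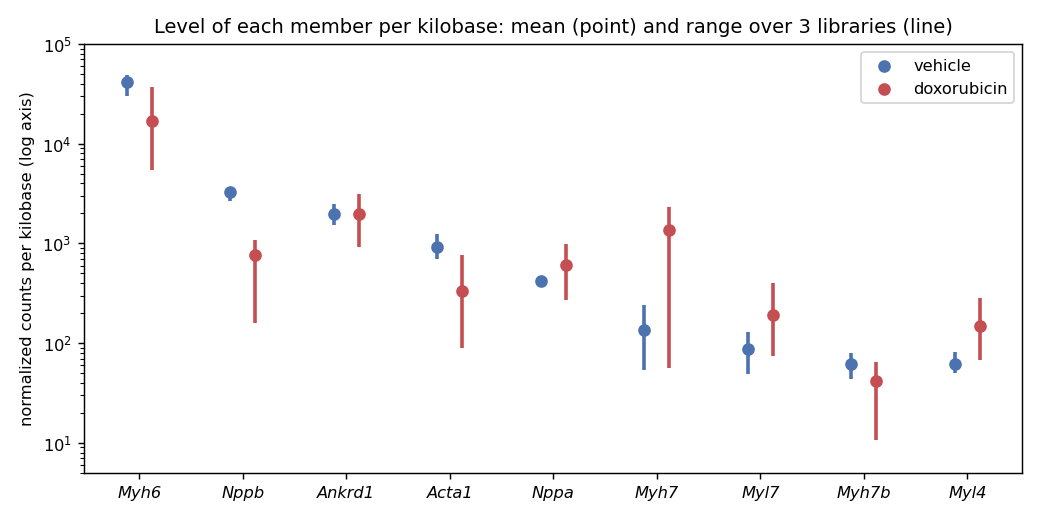
Normalized counts per kilobase of the longest coding transcript (log axis) for each member, as the mean (point) and the range (line) over 3 vehicle (blue) and 3 doxorubicin (red) libraries. The doxorubicin ranges are wide, and that of Myh7 runs from 57.0 to 2308.

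Genes around the programme were described by lists, none of which had a member called with all 6 libraries. Their counts are read beside all genes tested, of which 41.8% had groups wholly apart, 22.6% had doxorubicin wholly below vehicle, and 41.1% were called without doxorubicin replicate 1. In the natriuretic peptide pathway (9 genes, 8 tested) the median log2 fold change was 0.06, with 2 genes wholly higher and 1 wholly lower, a share near that of all genes. Without doxorubicin replicate 1 limma called 3 of the 8 higher and 1 lower. Npr1, the receptor of both peptides, was higher in every doxorubicin library, at 579 ± 82.9 against 380 ± 75.0 normalized counts (log2 fold change 0.62, SE 0.19, adjusted p 0.0863). Ide, a protease that can degrade the peptides, was lower at 537 ± 102 against 748 ± 50.1 (-0.49, SE 0.17, adjusted p 0.0962). Corin, the protease that cleaves the Nppa precursor, held 1539 to 2205 normalized counts in vehicle and 1317 to 1994 in doxorubicin.

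All 13 adult counterparts of fetal isoforms had a negative log2 fold change, with a median of -1.52, and 9 of them lay wholly below the vehicle libraries. Without doxorubicin replicate 1 limma called 12 of the 13 lower. Of these genes 5 (Tnni3, Myl2, Myl3, Pln and Ryr2) are also cardiomyocyte reference genes, a list with a median of -1.27, and centred on that list the median of the 13 was -0.21. Kcnd2, a channel of the transient outward potassium current, differed most, at 271 ± 35.2 against 101 ± 111 normalized counts (-1.96, SE 0.65, adjusted p 0.0891). Pln, the inhibitor of the calcium pump Atp2a2, differed least, at -0.79 (SE 0.49, adjusted p 0.275). Among 14 other genes of fetal or developing heart, 13 were tested and 3 were higher and 10 lower, with a median of -0.44. Limma called 1 higher and 7 lower when doxorubicin replicate 1 was left out. Tnni1, the fetal troponin I and the one not tested, held at most 3.03 normalized counts in any library. Hcn4, a pacemaker channel, differed most at -2.14 (SE 0.87, adjusted p 0.124), with 8.51 and 21.1 normalized counts in doxorubicin replicates 2 and 3 against 128 to 151 in vehicle and 146 in doxorubicin replicate 1. Without that replicate Hcn4 was at -3.26 (limma adjusted p 0.000471). Nfatc4 had the largest positive value at 0.63 (SE 0.30, adjusted p 0.167).

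Of 25 regulators of the programme, 5 were higher and 20 lower, with a median of -0.32, and 6 had doxorubicin groups wholly apart from vehicle, 1 above and 5 below, a smaller share than among all genes. Limma called 2 higher and 11 lower when doxorubicin replicate 1 was left out. The 1 wholly above was Tead4, a TEAD factor, named here after its values were seen. It held 24.9, 26.5 and 29.3 normalized counts in vehicle replicates 1 to 3, against 44.0, 79.0 and 83.3 in doxorubicin replicates 1 to 3 (log2 difference 1.27, SE 0.29, limma adjusted p 0.0859). Myocd, a coactivator of serum response factor, was furthest below 0 at -1.07 (SE 0.37, adjusted p 0.0946). Nfatc1 had the largest positive value among those with a mean of at least 50, at 0.53 (SE 0.21, adjusted p 0.121). Of 16 stretch and hypertrophy genes, 15 were tested and 12 were lower, 8 of them without overlap, with a median of -0.75. Limma called 2 higher and 8 lower when doxorubicin replicate 1 was left out. Among those with a mean of at least 50, Fhl2 differed most downward (-1.51, SE 0.47, adjusted p 0.0863). Ctgf, the matrix gene also named Ccn2, differed most upward, with 392, 2712 and 2039 normalized counts in doxorubicin replicates 1 to 3 against 448 to 649 in vehicle (1.20, SE 0.66, adjusted p 0.218), and it was at 2.06 without doxorubicin replicate 1 (adjusted p 0.00040). Among doxorubicin libraries its order was that of Myh7, with replicates 2 and 3 high and replicate 1 not. The summed fibroblast, neutrophil and epicardial markers had this order too, so it was not particular to these genes. The macrophage, endothelial and smooth muscle sums did not have it.

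The genes with the most similar pattern to a member were found by the root mean square distance of log2 values, each relative to its own mean over the 6 libraries, among 8212 genes with a mean of at least 100. Myh6 had the closest partners, Crhr2 at a distance of 0.149 and Fblim1 at 0.158. Ankrd1 was nearest to Tef (0.183) and Nr1d2 (0.195), both transcription factors with a daily rhythm. Nppa was nearest to Gipc3 (0.255) and Fam84b (0.272), and Acta1 to Cpxm2 (0.277) and Grip2 (0.279). Nppb had no partner as close, with Actr3b at 0.532 and Mhrt at 0.571, and Myh7 had the most distant ones, Ms4a6c at 0.751 and Apod at 0.788. Myl4 and Myl7 shared both partners, Nrarp (0.442 and 0.527) and the member Nppa (0.466 and 0.577). With 6 libraries these distances describe the samples only.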

How the data were processed

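Messenger RNA was measured in 6 libraries, 3 per group. Sample titles gave the group and the replicate number. Per the labels and the series text, reads were aligned with STAR in BaseSpace RNAseq Alignment 2.0.2 to mm10 with RefSeq genes, and RNA-seq Differential Expression 1.0.1 followed; the submitters' processing notes also name STAR 2.6.1a and Salmon. The deposited table holds a non-negative signal (read counts per gene after normalization), and the method of normalization is not given in the sources used here. Between 79.9% and 92.5% of low values lay within 0.1 of a whole multiple of the step of their library, too few to recover reads, and count tests were left out.

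Values were used as deposited, as log2(value + 1), which understates changes of low genes. Genes with a mean of at least 10 entered limma 3.58.1 (R 4.3.3) (trend, two-sided, Benjamini-Hochberg over all genes, threshold 0.05). The fit was checked on simulated data with the vehicle SD in both groups. That check does not cover the wider spread of the doxorubicin libraries in the members and reference genes. Ratios used exact permutation of libraries. The members, lists and alternatives were chosen with earlier results of these data known. Named genes are the 9 members, the member of each list with the largest difference in each direction at a mean of at least 50, and the 2 nearest genes by pattern (for Myh7b not reported here); Corin, Tnni1, Tead4, Mhrt and the marker genes were named to set beside members. Older symbols were matched through RefSeq. Figures were drawn with matplotlib 3.10.9.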

Additional observations from a re-analysis of the deposited data

How the results depend on the processing

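The fit of all genes called 0 genes with all 6 libraries, 5962 when libraries were centred on the cardiomyocyte reference genes, 4272 with library weights (0.277 for doxorubicin replicate 1) and 0 to 5127 when 1 library was left out, with 5127 without doxorubicin replicate 1 and 1 without replicate 2. Of the 9 members it called 0, and 4, 5 and 0 to 4 under those alternatives. Pseudocounts of 0.5 and 8, both other filters, equal totals, quantile normalization, no trend, robust estimation and the class covariate gave 0 calls. With equal totals the all-gene median was 0.29. Directions changed for Nppa with library weights (-0.11) and in the range of -0.10 to 0.84 over fits without 1 library, for Myh7b on the reference genes (0.41), and for Ankrd1 with equal totals (0.15), quantile normalization (0.24), the reference genes (1.15) and in the range of -0.57 to 0.31 without 1 library. The log2 ratio of Acta1 to Actc1 ran from -0.14 to 0.27 without 1 library. On the reference genes the medians of the other fetal isoforms, the regulators and the stretch genes were 0.86, 0.98 and 0.55, that of the adult counterparts was -0.21 and that of the natriuretic peptide pathway 1.36, beside 1.30 over all genes. The cause of these changes was not tested, apart from the shift that centring gives to all genes. The Myh7 to Myh6 difference ran from 2.69 to 6.73 without 1 library.

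Same-numbered libraries deviated together little, with correlations of -0.13, 0.03 and -0.09. Differently numbered libraries ran from -0.18 to 0.22. With so few libraries these values cannot settle whether the numbers pair the mice. With the replicate block 0 genes were called (smallest adjusted p 0.115), and the Myh7 to Myh6 difference of 4.20 had an exact p of 0.5.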

Other observations

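Genes of the conduction system and of T-type calcium current were low beside Hcn4 in doxorubicin replicates 2 and 3. Cacna1g, a T-type calcium channel, held 114 to 143 normalized counts in vehicle, against 129, 13.5 and 26.7 in doxorubicin replicates 1 to 3. Cacna1h, a second T-type channel and a gene of the fetal heart, held 56.4 to 84.3 and 88.7, 15.9 and 21.2. Tbx3, a transcription factor of the same system, went the other way, with 165 to 190.2 in vehicle and 179, 338 and 487 in doxorubicin replicates 1 to 3. Doxorubicin replicate 1 lay within or close to the vehicle range for all 4 genes. These were named after their values were seen.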
